A study of Mus musculus with 8 samples.

Results

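The genes described here are the Notch receptors Notch1, Notch2 and Notch3, the ligands Jag1, Jag2 and Dll1, and the target genes Hes1, Hey1, Heyl and Nrarp, as measured in the embryonic mouse lung. They were chosen by symbol, and all 10 were found, each as a single record among 24487 records of the expression tables. The libraries profiled progenitors marked by Sox9, a transcription factor of the growing tips of the lung epithelium. Translating ribosome affinity purification (TRAP) pulls down the ribosomes of labelled cells, here through the ribosomal protein L10 after induction with tamoxifen, and the mRNA they carry is sequenced. All libraries came from C57BL/6 lungs. On embryonic days 14 (E14) and 17 (E17), wild-type lungs gave a TRAP library and a whole lung homogenate library each. TRAP at E16 was sequenced from 2 wild-type and 2 Sox9-mutant samples, whose titles also carry E13, a day the labels do not explain. The series design calls the E14 reference a supernatant, but it is named whole lung here, as on its own label. The labels name neither the driver of the tamoxifen labelling nor the Sox9 allele, and they do not say whether embryos were pooled or replicates came from separate animals, so the spread behind each p-value may be technical.

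Notch signalling passes between touching cells. A ligand of the Jagged or Delta-like family on a cell binds a Notch receptor on its neighbour, the receptor is cut by ADAM proteases and then by gamma-secretase, and the freed intracellular part joins the DNA-binding protein RBPJ to switch on genes such as the Hes and Hey repressors and Nrarp, a feedback inhibitor of the receptor. In the lung the pathway is known for setting airway cell fates, favouring club cells over ciliated cells and limiting neuroendocrine cells, and for its part in blood vessels and their mural cells.

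Levels are in FPKM, the fragments of a gene divided by its length and by a measure of library size, so they can be compared between genes. Between 9783768 and 21500523 fragments lay behind a library, as inferred from the deposited confidence bounds. For Sox9 itself the E16 wild-type libraries held 35.9 and 36.4 FPKM and the mutant ones 12.8 and 11.03, while TRAP at E14 and E17 held 63.9 and 68.5 FPKM, above the 15.0 and 16.7 of whole lung. All 11 pan-epithelial markers, Epcam and Cdh1 among them, were higher in TRAP than in whole lung by limma at an adjusted p under 0.05. Endothelial, mesenchymal, and smooth muscle and pericyte markers had lower sums in TRAP than in whole lung at E14 and E17, but were present. None of these 12, 10 and 11 markers was at 0 in any library. The 5 erythroid markers found summed to 1763 FPKM in E14 TRAP and 2069 in E17 TRAP, against 3714 and 6289 in whole lung.

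The 250 bases before the RefSeq start (build GRCm38.p6) are shown for the ligand with the largest change in the mutant (Jag1), for the feedback inhibitor that changed with it (Nrarp) and for the receptor that changed the other way (Notch1), each on the strand of its gene. Capitals mark matches to motifs searched on both strands, namely the RBPJ core TGGGAA and its longer form GTGGGAA, which contains it, the E box CACGTG and the N box CACNAG, the letters that Hes proteins are known to bind.
Jag1, chr2:137116521-137116770, minus strand: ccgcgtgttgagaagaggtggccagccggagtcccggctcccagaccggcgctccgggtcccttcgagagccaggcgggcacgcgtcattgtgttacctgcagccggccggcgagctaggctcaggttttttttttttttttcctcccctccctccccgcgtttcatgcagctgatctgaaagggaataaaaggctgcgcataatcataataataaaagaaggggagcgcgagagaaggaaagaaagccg
Nrarp, chr2:25180508-25180757, plus strand: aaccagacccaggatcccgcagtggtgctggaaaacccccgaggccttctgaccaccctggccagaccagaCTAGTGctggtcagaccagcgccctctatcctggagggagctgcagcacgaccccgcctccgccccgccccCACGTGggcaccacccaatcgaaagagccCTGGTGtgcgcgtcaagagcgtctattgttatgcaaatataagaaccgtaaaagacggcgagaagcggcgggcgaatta
Notch1, chr2:26503823-26504072, minus strand: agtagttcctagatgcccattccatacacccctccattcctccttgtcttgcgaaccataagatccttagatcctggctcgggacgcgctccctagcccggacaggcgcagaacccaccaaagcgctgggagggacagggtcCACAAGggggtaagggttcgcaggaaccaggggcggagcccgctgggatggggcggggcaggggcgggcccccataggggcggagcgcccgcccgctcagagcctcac

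The Nrarp window held an E box from base -108 to -103, counted back from the start, and N boxes on the opposite strand at bases -179 to -174 and -79 to -74. The Notch1 window held a single N box at bases -108 to -103, and the Jag1 window held none of the motifs. Of 32851 promoter windows of the same length, 21.6% held TGGGAA, 5.42% GTGGGAA, 6.02% CACGTG and 36.7% CACNAG. Neither RBPJ form was found in any of the 8 windows of the 7 members that could be matched. Hes1, Hey1 and Heyl were not matched.

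Hes1 (chromosome 16, 30065357 to 30067796, mm10), the repressor through which Notch acts on many cell fates, had the highest level of the 10 genes in every library, from 31.8 FPKM in E14 whole lung to 65.02 in mutant replicate 1. Dll1 (chromosome 17, 15367354 to 15375823), a Delta-like ligand, had the lowest, from 0.474 FPKM in wild-type replicate 2 to 1.88 in E17 whole lung, and rested on 33 to 138 fragments. Among the receptors Notch3 led in 7 libraries, and Notch1 led in E17 TRAP with 10.3 FPKM against 7.83 for Notch3. Among the ligands Jag2 led in all 8 libraries. In E14 TRAP, however, Jag2 and Jag1 were at 1.97 and 1.93 FPKM, closer together than their deposited bounds.

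**Figure D1:**
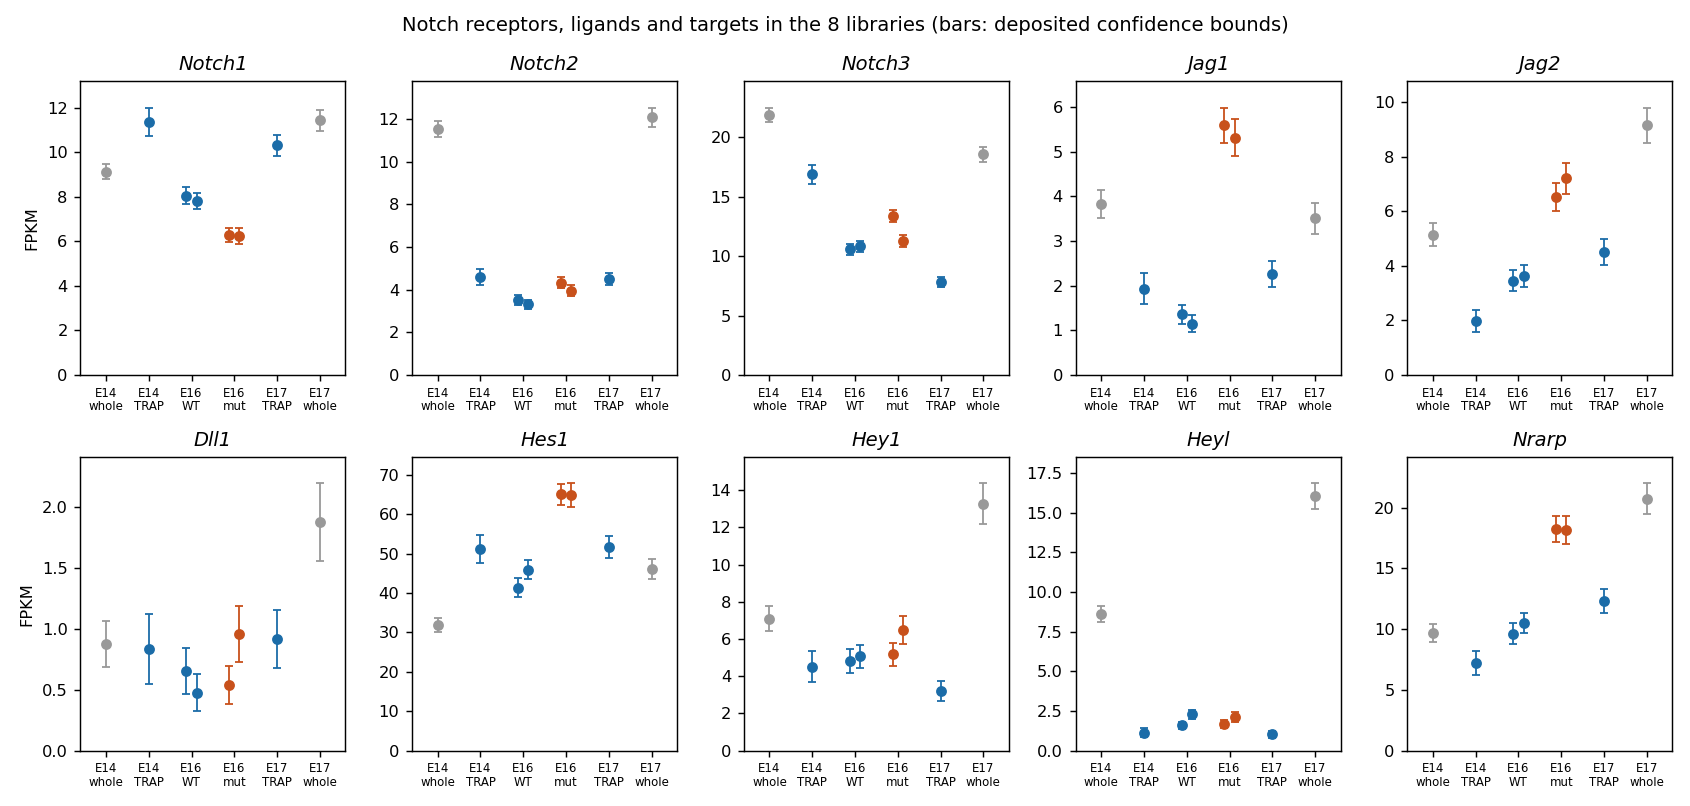
FPKM of each of the 10 genes (vertical axis, from 0, with its own scale for each gene) in the 8 libraries, ordered by day and fraction. WT is the E16 wild type and mut the E16 Sox9 mutant, each point is 1 library, and bars are the deposited confidence bounds. The mutant points of Jag1 lie at 5.59 and 5.31 FPKM, above every other library, and the whole lung points of Heyl lie at 8.62 and 16.03, above every TRAP library.

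The comparison of the Sox9 mutant with the wild type asked which Notch mRNAs of the labelled cells differ at E16. The ligands Jag1 and Jag2 and the targets Hes1 and Nrarp rose in the mutant, and the receptor Notch1 fell. The mean of Jag1 was 4.34 times and that of Jag2 1.94 times the wild-type mean in FPKM, while Nrarp was at 1.81 times and Hes1 at 1.49 times. Of the 9 genes tested by limma with Benjamini-Hochberg adjustment over all records, 4 rose, 1 fell and 4 did not pass. Over all 11872 records tested, 17.4% were called higher and 14.3% lower, or 31.6% in either direction. The median log2 difference of the 9 genes, in FPKM + 1, was 0.22 against 0.0076 over all records. Dll1 had a mean below 1 FPKM and was not tested.

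Jag1 (chromosome 2, 137081451 to 137116520), a Jagged ligand, stood at 1.36 and 1.15 FPKM in wild-type libraries and at 5.59 and 5.31 in mutant libraries. Both mutant libraries lay far above both wild-type libraries. The log2 difference of FPKM + 1 was 1.52 (SE 0.10, limma, adjusted p = 0.000266), the 158th highest of the 11872 records. Jag2 (chromosome 12, 112908590 to 112929495), the other Jagged ligand, stood at 3.45 and 3.62 FPKM without the mutation and at 6.51 and 7.21 with it, again without overlap (log2 0.79, SE 0.08, adjusted p = 0.00154). Wild-type Dll1 values of 0.654 and 0.474 FPKM overlapped the mutant values of 0.541 and 0.960. The 3 ligands summed to 5.47 and 5.25 FPKM in wild-type and to 12.6 and 13.5 in mutant libraries. Jag1 made up 24.9% and 21.9% of that sum in the wild type and 44.2% and 39.4% in the mutant, given here as a description with no test.

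Nrarp (chromosome 2, 25180758 to 25183332), the feedback inhibitor whose promoter is printed above, measured 9.63 and 10.5 FPKM in wild-type libraries and 18.2 in each mutant library. The groups did not overlap (log2 0.80, SE 0.07, limma, adjusted p = 0.000686). Wild-type Hes1 measured 41.3 and 45.9 FPKM, and both mutant libraries lay above this at 65.02 and 64.8 (log2 0.56, SE 0.06, adjusted p = 0.00186). The Hey repressors did not pass. Hey1 (chromosome 3, 8663359 to 8667038) measured 4.82 and 5.07 FPKM in wild-type and 5.18 and 6.48 in mutant libraries (log2 0.20, SE 0.11, adjusted p = 0.227). Heyl (chromosome 4, 123233556 to 123249870), a Hey gene known from vascular smooth muscle, had 1.58 and 2.29 FPKM against 1.67 and 2.11, with the mutant values inside the wild-type range (log2 -0.02, SE 0.15, adjusted p = 0.939).

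The receptors moved little. Notch1 (chromosome 2, 26457902 to 26503822) measured 8.06 and 7.81 FPKM in wild-type libraries, and both mutant libraries lay lower, at 6.27 and 6.24 (log2 -0.30, SE 0.07, limma, adjusted p = 0.0220). This call did not survive leaving out any single library of the 4, wild-type replicates 1 and 2 or mutant replicates 1 and 2, with log2 differences of -0.28, -0.32, -0.30 and -0.30. It was also lost after a rescaling that omitted records under 200 bases (-0.24). Notch2 (chromosome 3, 98013538 to 98150367) had 3.51 and 3.30 FPKM against 4.33 and 3.95 in the mutant (log2 0.22, SE 0.09, adjusted p = 0.107). Notch3 (chromosome 17, 32120893 to 32166852), the receptor known from pericytes and smooth muscle, had 10.6 and 10.8 against 13.4 and 11.2 (log2 0.18, SE 0.09, adjusted p = 0.183), and was called higher without mutant replicate 2 (0.30) but stood at 0.07 without mutant replicate 1 (adjusted p = 0.625). Groups did not overlap for 8 of the 10 genes, and they likewise did not overlap for 70.1% of all records tested. With libraries rescaled to a common FPKM total, which moved the median of all records to 0.41, only Jag1 among the 10 still passed (log2 1.85), as did 1.93% of all records. Jag2, Nrarp and Hes1 had larger differences there (1.16, 1.22 and 1.02) with larger SEs (0.57, 0.64 and 0.67), and Notch1 turned to 0.10. The FPKM total was 1631259 in wild-type replicate 1 and 767845 to 906098 in the other E16 libraries.

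Other genes of the pathway were read from lists grouped by role. Of 47 tested among 56 listed, 12 rose and 6 fell in the mutant (median log2 0.08). Over all records tested, 17.4% rose and 14.3% fell. Among the genes of receptor cleavage, 3 of 9 rose and none fell by limma. They were Furin, the protease that matures the receptor (log2 0.44, adjusted p = 0.00254), and the sheddases Adam10 (0.37, adjusted p = 0.00608) and Adam17 (0.30, adjusted p = 0.00973), while 3 of the 9 had an unadjusted p under 0.05. Of 16 nuclear cofactors and corepressors, 4 rose and 3 fell. Tle4, a Groucho corepressor of the kind that Hes proteins recruit, measured 5.098 and 4.62 FPKM in wild-type and 23.8 and 21.3 in mutant libraries (log2 2.004, adjusted p = 8.11e-05). Its relative Tle1 rose too (0.48), and Tle3 fell (-0.51).

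Of 12 endocytic and ubiquitin regulators tested, 3 rose and 1 fell. The ubiquitin ligase gene Neurl1b fell (log2 -0.75), whereas Numb, which is known to oppose Notch (0.43), and Dtx4, a Deltex ubiquitin ligase (0.42), rose. Of 5 fringes and glycosyltransferases, Poglut1, which adds O-glucose to Notch (-0.31), and the fringe Mfng (-0.53) fell. Of the other receptors and ligands, Dlk2 rose (0.91) from 0.351 and 0.705 FPKM to 1.19 and 2.71. Hes6, a Hes relative known to counter Hes1, rose by 0.32 on the log2 scale from 93.3 and 89.2 FPKM to 108 and 120.

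**Figure D2:**
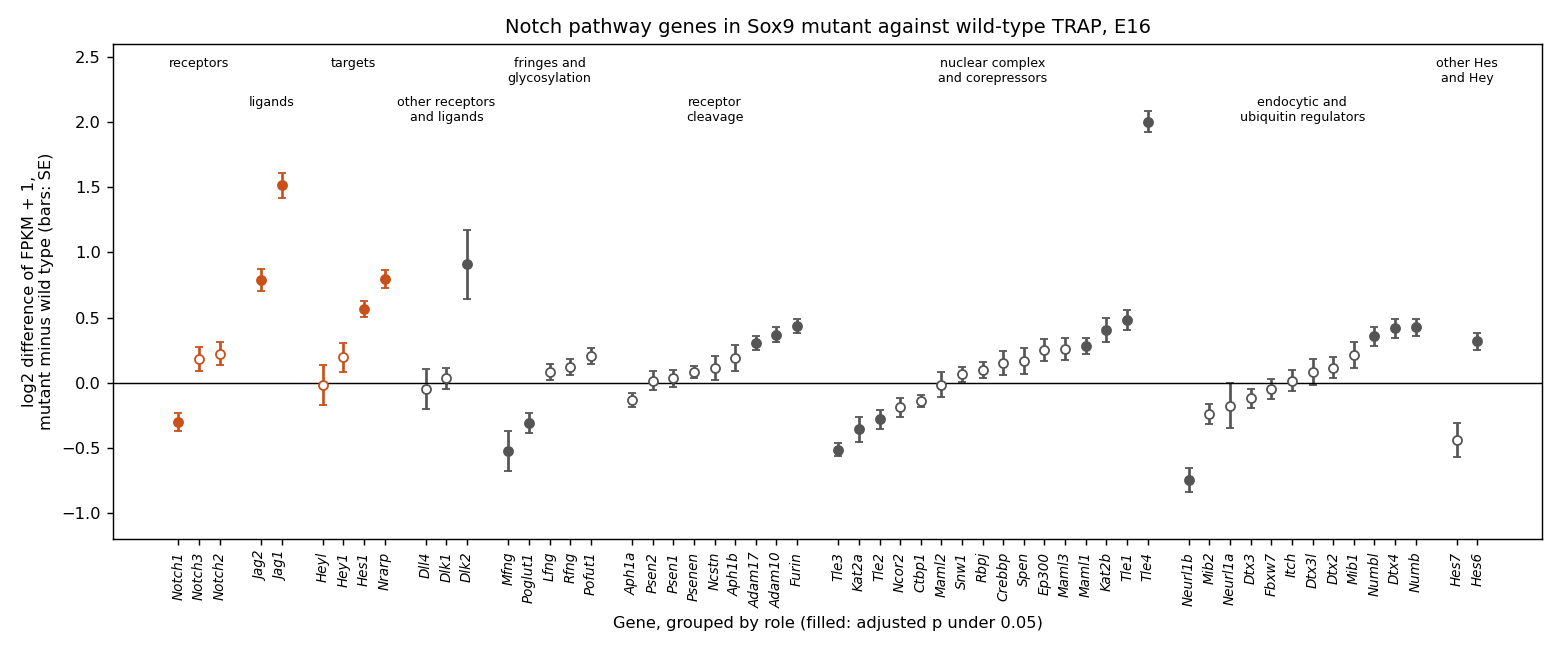
Log2 difference of FPKM + 1 between the Sox9 mutant and the wild type (vertical axis) for each tested gene of the Notch pathway, grouped by role and ordered by value within a group. Bars are the standard error from limma, filled points passed at an adjusted p under 0.05, and the 9 tested genes of this report are in orange. Tle4 (2.004) and Jag1 (1.52) have the highest values and Neurl1b (-0.75) the lowest.

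Most epithelial markers were also higher in the mutant. Of 11 pan-epithelial markers 9 were called higher and 1 lower (median log2 0.39), beside 17.4% and 14.3% of all records. Their sums were 2571 and 2549.5 FPKM in wild-type and 3443 and 3309 in mutant libraries. The markers differed among themselves. Krt19 had a mean of 114 FPKM in the wild type and 401 in the mutant, Epcam 299 and 289, and Nkx2-1 362 and 297. The summed level of 7 ciliated cell markers was 16.2 and 11.9 FPKM in wild-type and 56.6 and 61.2 in mutant libraries, with 4 of 5 tested markers called higher. That of 6 club cell markers was 572 and 548 FPKM against 1716 and 1935, with 3 of 4 called higher. Scgb3a2 made up most of this difference, with a mean of 133 FPKM in the wild type and 1304 in the mutant. Scgb1a1, with means of 278 and 275 FPKM, hardly differed. Of 9 neuroendocrine markers 3 were tested, and 1 was called lower. The peptide gene Calca, a marker of these cells, was below 0.5 FPKM in all 4 E16 libraries. Endothelial markers summed to 24.2 and 39.3 FPKM in wild-type and to 26.8 and 18.1 in mutant libraries, and smooth muscle and pericyte markers to 55.05 and 82.8 against 42.7 and 64.8, so both ranges overlapped. Mesenchymal markers, at 88.1 and 120.03 against 61.2 and 110.1 FPKM, overlapped too. The part of these cells in the changes of Notch genes was not tested.

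TRAP was set against whole lung to see how Notch mRNA levels on ribosomes of the labelled cells compare with those of the organ. None of the 10 genes was called higher in TRAP by limma over both days, and 7 were called lower, namely Notch2, Notch3, Jag1, Jag2, Hey1, Heyl and Nrarp. Over all 12320 records 23.6% were called higher and 17.1% lower, or 40.7% in either direction. The median log2 difference of the 10 genes was -0.67 against 0.050 over all records. Hes1 was the only gene with a higher value in TRAP on both days, and its unadjusted p was under 0.05. It passed in a fit of all 8 libraries, where the spread comes from the E16 replicates, single libraries are assumed to vary like them, and 37.9% of all records were called higher. It did not pass under limma-voom (log2 0.33, adjusted p = 0.118) or with a common FPKM total (0.03, adjusted p = 0.967). TRAP reads mRNA carried by ribosomes and whole lung reads a homogenate, so the measures differ as well as the cells. A lower level in a bulk sample can come from fewer cells of a type or from less RNA per cell. These and the difference of measure cannot be told apart here.

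Among the receptors, Notch1 in TRAP measured 11.4 and then 10.3 FPKM on the successive days, where whole lung measured 9.13 and then 11.4. It was thus higher in TRAP at E14 and lower at E17, and did not pass (log2 0.08, SE 0.15, limma, adjusted p = 0.716). Notch2 measured 4.57 FPKM (E14) and 4.49 (E17) in TRAP, well under the 11.5 and 12.1 of whole lung (log2 -1.21, SE 0.13, adjusted p = 0.00252). Notch3 measured 16.9 FPKM (E14) and 7.83 (E17) in TRAP, under the 21.9 and 18.6 of whole lung (log2 -0.75, SE 0.20, adjusted p = 0.0334). The ratio of TRAP to whole lung FPKM was 0.771 (95% counting interval 0.729 to 0.815) for Notch3 at E14 and 0.422 (0.395 to 0.450) at E17. Counting intervals cover only the error of sampling fragments, not the spread between samples.

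Of the 3 ligands, Jag1 and Jag2 were called lower in TRAP. Jag2 measured 1.97 FPKM (E14) and 4.49 (E17) in TRAP, and 5.14 and 9.14 in whole lung (log2 -0.97, SE 0.15, limma, adjusted p = 0.00699). Jag1 measured 1.93 and 2.25 FPKM in TRAP, and 3.83 and 3.51 in whole lung, also lower on both days (log2 -0.60, SE 0.18, adjusted p = 0.0453). Dll1 measured 0.832 and 0.916 FPKM in TRAP, and 0.877 and 1.88 in whole lung, and did not pass (log2 -0.31, adjusted p = 0.335). The Jag1 level in the mutant, 5.59 and 5.31 FPKM, lay above both whole lung values, though days differ and no test was made.

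Target genes ran from slightly above to far below whole lung. Hes1 measured 51.1 FPKM (E14) and 51.8 (E17) in TRAP, above the 31.8 and 46.2 of whole lung (log2 0.41, SE 0.14, limma, adjusted p = 0.0685). Heyl was at the other end, with 1.13 and 1.04 FPKM in TRAP where whole lung measured 8.62 and 16.03 (log2 -2.62, SE 0.24, adjusted p = 0.00162). Whole lung thus held 7.61 times the TRAP level of Heyl at E14 and 15.5 times at E17, the difference that ranked 131st lowest of the 12320 records. Hey1, which is known from arterial endothelium, measured 4.51 and 3.20 FPKM in TRAP, under the 7.08 and 13.3 of whole lung (log2 -1.16, SE 0.29, adjusted p = 0.0279). Nrarp measured 7.23 and 12.3 FPKM in TRAP, and 9.69 and 20.7 in whole lung, again lower in TRAP (log2 -0.54, SE 0.14, adjusted p = 0.0284).

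**Figure D3:**
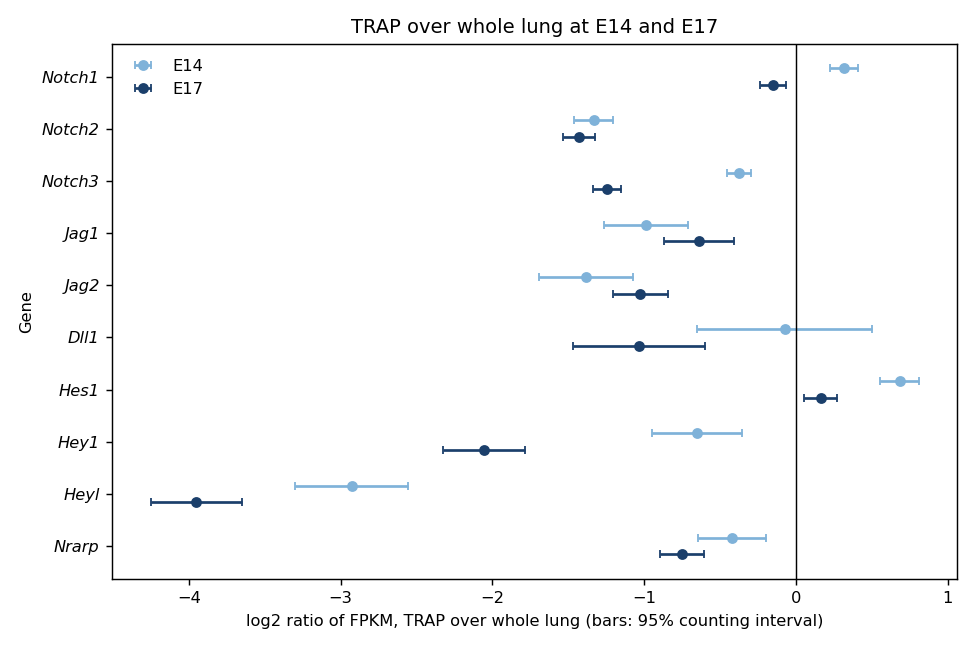
Log2 ratio of FPKM in TRAP over whole lung (horizontal axis) for each gene at E14 (light blue) and at E17 (dark blue), with 1 library per fraction and day and bars for the 95% counting interval. Values left of 0 are lower in TRAP. Heyl lies farthest left on both days, and Hes1 is the only gene right of 0 on both.

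With each day taken alone and no test, 3 of 9 genes (Notch2, Jag2 and Heyl) were at least 2-fold lower in FPKM + 1 at E14, as were 9.58% of records, and 4 of 10 (Notch2, Notch3, Hey1 and Heyl) at E17, as were 9.13%. No member was 2-fold higher on either day, a size reached by 6.11% of records at E14 and 4.85% at E17. Without a filter on low values the number of genes called lower dropped to 3, with Notch3, Jag1, Hey1 and Nrarp no longer passing at the same log2 differences, while the lower calls over all records dropped to 10.4%, and Jag1 also did not pass after centring libraries on their medians. Of the other receptors and ligands, 2 of 3 tested were called lower in TRAP by limma, Dll4, a ligand of endothelium (log2 -1.05, adjusted p = 0.00826), and Notch4, an endothelial receptor (-1.51, adjusted p = 0.00830). Of 5 fringes and glycosyltransferases 1 was, the fringe Mfng (-2.12, adjusted p = 0.000949). All 12 endothelial markers were called lower, with summed levels of 26.9 and 54.6 FPKM in TRAP against 262 and 503 in whole lung. Of 11 smooth muscle and pericyte markers 10 were called lower (85.5 and 39.0 FPKM summed in TRAP against 373 and 375), and so were all 10 mesenchymal markers (79.2 and 104 against 951 and 1161). These lists moved with the lower Notch genes, and their part in that difference was not tested.

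Of 48 other pathway genes tested, 9 were called higher in TRAP and 7 lower (median log2 0.08), beside 23.6% and 17.1% of all records. The higher genes included Hes6 (log2 1.14, limma, adjusted p = 0.00341), with 65.05 and 69.1 FPKM in TRAP and 24.4 and 36.8 in whole lung. They also included Psenen, a subunit of gamma-secretase (0.98), Dtx4 (0.86), the corepressors Tle2 (0.76) and Tle3 (0.56), and Dlk1, an imprinted relative of the Delta ligands that is known to dampen Notch (0.70). Dlk1 was abundant, at 193 and 560.2 FPKM in TRAP and 161 and 255 in whole lung. Besides Dll4, Notch4 and Mfng, the genes Numbl, a relative of Numb (-1.37), the ubiquitin ligase gene Neurl1a (-1.38) and Rbpj (-0.47) were lower.

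The days E14 and E17 were compared next. Jag2 and Nrarp were called higher at E17 in the fit shared by TRAP and whole lung, none of the 10 genes was called lower by limma, and 8 did not pass. Over all 12320 records 9.51% were called higher and 6.36% lower, or 15.9% in either direction. The median log2 difference of the 10 genes was 0.24 against 0.0070 over all records. Notch3 was lower in both fractions and did not pass in this fit (log2 -0.62, SE 0.20, adjusted p = 0.0938), though it passed in the fit of all 8 libraries, which called 48.8% of all records and in which Hes1 was called higher as well.

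Jag2 went from 1.97 to 4.49 FPKM in TRAP and from 5.14 to 9.14 in whole lung, higher at E17 in each (log2 0.80, SE 0.15, limma, adjusted p = 0.0305). Nrarp went from 7.23 to 12.3 FPKM in TRAP and from 9.69 to 20.7 in whole lung (log2 0.86, SE 0.14, adjusted p = 0.0229). Both calls were lost with no filter on low values, where the differences were the same and 0.283% of all records passed, and after rescaling to a common FPKM total (0.59 and 0.61). Notch3 went from 16.9 to 7.83 FPKM in TRAP, at 0.464 times its E14 level (95% counting interval 0.431 to 0.499). In whole lung it went from 21.9 to 18.6, at 0.848 times (0.812 to 0.886). In TRAP, Notch3 was the only member with a change of at least 2-fold in FPKM + 1, a size reached by 6.66% of records (4.75% higher, 1.91% lower), and it was lower. In whole lung Nrarp alone reached that size, as did 6.12% of records (4.83% higher, 1.30% lower), and it was higher.

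Hey1 and Heyl had different values in the fractions. Hey1 went from 4.51 to 3.20 FPKM in TRAP and from 7.08 to 13.3 in whole lung, where it was at 1.87 times its E14 level (95% counting interval 1.66 to 2.12). Heyl went from 1.13 to 1.04 FPKM in TRAP and from 8.62 to 16.03 in whole lung, at 1.86 times (1.72 to 2.01). Hes1 was at 51.1 and 51.8 FPKM in TRAP, within counting error, and went from 31.8 to 46.2 in whole lung. Dll1 in whole lung went from 0.877 to 1.88 FPKM, at 2.14 times (1.64 to 2.80), and in TRAP its interval of 0.720 to 1.68 spans no change. Dll1 averaged under 1 FPKM, so its bounds were not checked against counting error and its intervals are less certain than those of the other genes. Endothelial markers summed to 262 FPKM at E14 and 503 at E17 in whole lung, and to 26.9 and 54.6 in TRAP. In the limma fit shared by both fractions 8 of 12 were called higher at E17, as were 9.51% of all records. Smooth muscle and pericyte markers summed to 373 FPKM at E14 and 375 at E17 in whole lung, and to 85.5 and 39.0 in TRAP. Of these 11 markers 2 were called higher at E17 and 3 lower, beside 9.51% and 6.36% of all records. The part of either list in the Notch3, Hey1 and Heyl values was not tested.

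**Figure D4:**
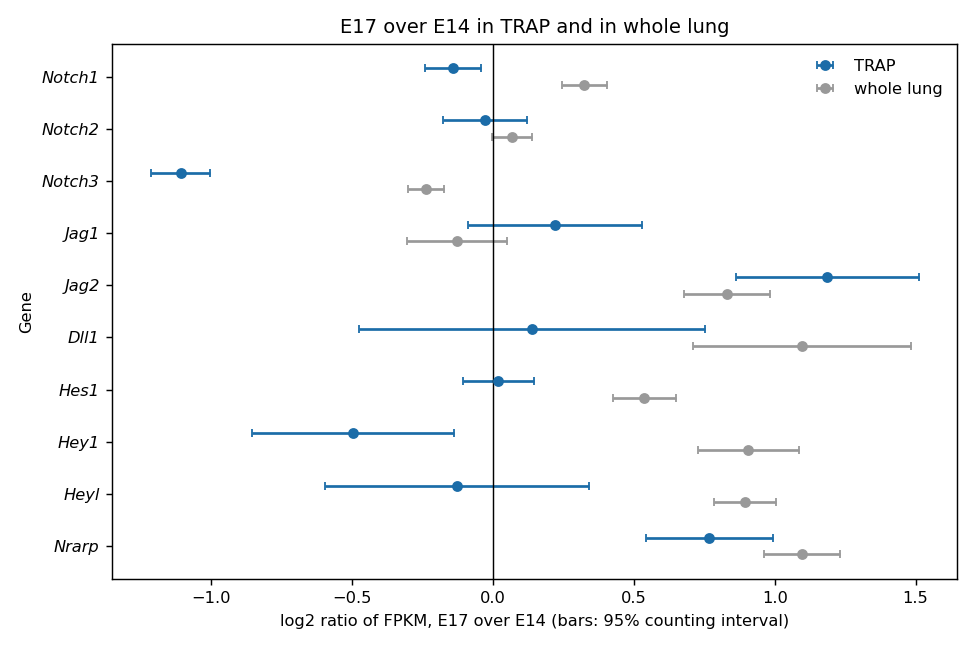
Log2 ratio of FPKM at E17 over E14 (horizontal axis) for each gene in TRAP (blue) and in whole lung (grey), with 1 library per day and fraction and bars for the 95% counting interval. Jag2 and Nrarp lie right of 0 in both fractions, Notch3 left of 0 in both, and Notch1, Notch2, Jag1, Hey1 and Heyl on opposite sides.

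Of 48 other pathway genes, 6 were called higher at E17 and 2 lower (median log2 0.10), beside 9.51% and 6.36% of all records. Dlk1 (log2 1.09, limma, adjusted p = 0.0299) and Neurl1b (1.00, adjusted p = 0.0233) had the largest values among those named. The acetyltransferase gene Kat2b (0.79), Furin (0.50), the fringe Rfng (0.47) and Psenen (0.39) also rose. Mib1, the ubiquitin ligase that lets ligands signal (-0.61), and Kat2a (-0.44) fell. With no test, the largest differences among pathway genes in TRAP alone were those of Dlk1 (1.53) and Tle4 (1.03), from 6.91 to 15.2 FPKM, and in whole lung alone those of Neurl1b (1.12) and Lfng, a fringe of the airway epithelium (0.96).

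The E16 wild-type TRAP libraries can be set beside E14 and E17 TRAP, with no test, since their titles also carry E13. Jag2 at 3.45 and 3.62 FPKM, Nrarp at 9.63 and 10.5 and Notch3 at 10.6 and 10.8 all lay between their E14 and E17 values. Jag1 at 1.36 and 1.15 FPKM, Notch1 at 8.06 and 7.81, Notch2 at 3.51 and 3.30 and Hes1 at 41.3 and 45.9 lay below both days. Dll1 also lay below both days, while Hey1 and Heyl lay above both. The mutant values of Jag1, Jag2, Hes1 and Nrarp lay above all 4 wild-type TRAP libraries, and those of Notch1 lay below them. The mutant values of Hey1, which did not pass in the mutant fit, lay above them too.

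The records whose pattern over the 8 libraries was most like each gene are a description, given with no p, since libraries share fraction and depth. By Pearson's r of log2(FPKM + 1) among 3766 records, Jag1 was most like Igf2 (r = 0.981) and Creb3l1 (0.978), and Jag2 like Gpx7 (0.982) and Fstl1 (0.974). Hes1 was most like Pla2g1b (0.970) and Myl6 (0.961), Nrarp like Cav2 (0.979) and Trp53i11 (0.976), Hey1 like Mapre2 (0.958) and Zyx (0.953), and Heyl like Nid1 (0.994) and Peli2 (0.994). Among the receptors, Notch1 was most like Rn45s (0.984) and Lamb1 (0.952), Notch2 like Thoc2 (0.991) and Son (0.991), and Notch3 like Usp11 (0.947) and Ptprs (0.946). Dll1 was most like Cxx1b (0.925) and Cxx1a (0.924), at levels where counting error is large.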

How the data were processed

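Per the labels' protocols, the NEBNext Ultra kit was used for all 8 RNA-seq libraries. The submitters' processing notes name Bowtie2 2.2.3, TopHat2 2.0.14, Cufflinks 2.2.1, Cuffnorm and the build mm10. Per the file headers, each table the authors deposited lists FPKM and a pair of confidence bounds for 24487 records. The scaling of library totals is not stated in these sources. Starts are printed with 1 added to the deposited position.

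Fragments behind a value were inferred from the bounds by dividing each value by its standard error and squaring, with the distance to the upper bound read as 2 standard errors. Bounds followed counting error within 0.1 log2 for 8635 of 12165 records checked (71.0%), 9 of the 10 members among them. Dll1, under 1 FPKM on average, was not checked, and its number is less certain. Replicates differed by more than counting error: the mean squared difference was 5.51 counting variances between wild-type and 7.12 between mutant replicates, so no libraries were merged.

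Tests used limma 3.58.1 in R 4.3.3 with a trend on log2(FPKM + 1), which understates changes of low genes, keeping records that average 1 FPKM or more, two-sided, with a threshold of 0.05 after Benjamini-Hochberg adjustment. The mutant fit used 4 libraries (2 residual and 3.73 prior degrees of freedom). The fit of fraction and day used the other 4 with additive terms (1 and 4.47), so its spread is the disagreement between days or fractions. Alternatives are given in the closing section. The 10 genes, the gene lists and the tests were chosen with earlier results of these data known. From each pathway list, up to 3 genes with the smallest p among those that passed were named, or without a test up to 2 with the largest change among those with at least 5 FPKM. The likest records had a mean of at least 5 FPKM, at least 200 bases and an SD of at least 0.3, and predicted models and small RNAs were passed over. Calca, Epcam and Cdh1 are named as defining markers. Krt19 and Nkx2-1 are named to show the spread within the epithelial list, and Scgb3a2 and Scgb1a1 to show what makes up the club cell sum. One marker is not reported here. The kit's strand setting is not stated, and RefSeq noncoding records or microRNAs overlap Notch1, Notch2, Notch3 and Jag2 and a protein-coding model overlaps Hey1, so fragments of these cannot be told apart. Promoters are from RefSeq.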

Additional observations from a re-analysis of the deposited data

Results flagged for a closer look

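In 5 of the genes the E17 value lay on opposite sides of the E14 value in TRAP and whole lung, each with 1 library per fraction and day. For Notch1 the log2 ratio of TRAP to whole lung FPKM at E17 minus that at E14 was -0.47, with TRAP higher at E14 and lower at E17. For Hey1 the log2 ratio of E17 to E14 in TRAP minus that in whole lung was -1.40, and for Heyl it was -1.02, with lower E17 values in TRAP and higher ones in whole lung, though the TRAP interval of Heyl includes no change. The same quantity was 0.35 for Jag1 and -0.095 for Notch2, where the counting intervals of both fractions include no change. In the fit of all 8 libraries by limma, where single libraries are assumed to vary like the E16 replicates, the difference did not pass for any of the 5, with adjusted p = 0.168 for Notch1, 0.0884 for Hey1, 0.203 for Heyl, 0.487 for Jag1 and 0.793 for Notch2. Notch3 and Hes1 were not flagged, since their values differed in the same direction in both fractions. In that fit their differences in log2(FPKM + 1) were -0.79 and -0.51, which did not pass either (adjusted p = 0.121 and 0.133). Of all 12248 records, 0.914% passed that test.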

How the results depend on the processing

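Over the alternatives run, the number of genes called higher in the mutant ranged from 4 to 5 when a library was left out and was 1 after rescaling libraries to a common FPKM total, where Notch1 turned to 0.10. The number called lower was 0 without any single library, after that rescaling and after a rescaling that omitted records under 200 bases. Leaving out a library leaves an arm with 1 sample, assumed to vary like the others. With the replicate number as a block the counts were 4 and 1 as without it, and it changed no call of the 10 genes. The numbers are not stated to pair the libraries, and same-numbered deviations were correlated at 0.0072. For TRAP against whole lung, 1 gene (Hes1) was called higher in the fit of all 8 libraries and 3 were called lower with no filter. For E17 against E14, 0 were called higher with no filter and after rescaling to a common total, and 1 (Notch3) was called lower in the fit of all 8 libraries, with short records left out before rescaling and after rescaling to a common total. Rescaling to a common total moved the median of all records to 0.41 in the mutant, -0.30 for TRAP and -0.23 for E17. Over all records the mutant had 2063 higher and 1692 lower calls, which became 1749 and 2336 with centring, 2711 and 1259 with short records omitted, and 175 and 57 with a common total. For TRAP, 2910 higher and 2105 lower calls became 546 and 2921 with a common total, and for E17, 1172 and 783 became 511 and 613 with it and 1260 and 1536 with short records omitted. The cause of these changes was not tested. Under limma-voom on inferred fragments Jag1, Jag2, Hes1 and Nrarp were again higher in the mutant, and Notch2 (0.31) was called higher too, as was Heyl at E17 (0.73). Dll1, resting on 33 to 138 fragments, is limited most by depth.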
